A study of Mus musculus with 6 samples.

Results

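The comparison described here set microglia of LRRK2KO mice after 24 h of lipopolysaccharide (LPS) beside microglia of Ntg mice after the same exposure, which is 2 of the 6 arrays of the series, chosen by their titles. The question was which transcripts set the genotypes apart in the late activated state without doing so between the LRRK2KO and Ntg arrays of cells given phosphate-buffered saline (PBS) for 24 h. The LRRK2KO mice were B6.129X1(FVB)-Lrrk2tm1.1Cai/J and carry a disrupted Lrrk2 gene, while the Ntg mice were C57BL/6, so strain origin and genotype cannot be told apart. All cells came from brains of mice at postnatal day 3 and were exposed in vitro. A further pair of arrays held LRRK2KO and Ntg cells after 6 h of LPS. Each of the 6 groups was measured on 1 Illumina beadchip, so there was no replicate spread to set a difference against, and every comparison below is a value with no test. The labels do not say whether animals were pooled.

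LRRK2 is a large protein with a kinase and a GTPase domain that phosphorylates Rab GTPases, and variants in its gene cause or raise the risk of Parkinson disease. Microglia are the resident macrophages of the brain. They sense LPS, a component of bacterial outer membranes, through Toll-like receptor 4. Its MyD88 arm drives NF-kB and early cytokine genes, and its TRIF arm drives interferon beta, which acts back on the cells through STAT and IRF factors and switches on interferon-stimulated genes.

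Of 45281 probes, 14179 were detected on the LRRK2KO LPS 24 h array and 14090 on the Ntg LPS 24 h array, and 13126 to 15049 on all 6 arrays, at a detection p under 0.01. Values below are normalized log2 intensities, for 8598 genes, and a difference is LRRK2KO minus Ntg, so that 1 stands for 2-fold. The knockout could not be checked at LPS 24 h. None of the 12 Lrrk2 values there (6 probes on 2 arrays) was detected, and their unnormalized intensities lay between 92.2 and 107. Over all 6 arrays 1 of 36 values was detected, by a probe that read 90.6 (undetected) in LRRK2KO cells and 133 in Ntg cells at PBS, which is the direction of the labels. A second probe was also lower in LRRK2KO cells in every arm, at 96.8 in LRRK2KO cells and 107 in Ntg cells at LPS 24 h, but was detected on no array. The LRRK2KO array also had the lower median intensity over all probes in every arm. That median was 98.9 in LRRK2KO cells and 103.6 in Ntg cells at LPS 24 h, and 94.9 and 111.1 at PBS. A lower unnormalized reading of an undetected probe therefore does not by itself show less Lrrk2. Among 9 microglia markers, 8 were detected on both LPS 24 h arrays, including Csf1r at 10.98 in LRRK2KO cells and 10.51 in Ntg cells and Aif1 at 12.61 in LRRK2KO cells and 12.45 in Ntg cells. P2ry12, a purine receptor used to define resting microglia, was not detected on any of the 6 arrays, and Tmem119 was near the detection limit at 5.76 in LRRK2KO cells and 5.12 in Ntg cells.

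At LPS 24 h, 147 genes were at least 2-fold higher in LRRK2KO cells (1.71% of the genes) and 191 were at least 2-fold lower (2.22%). Between the PBS arrays, 87 genes were higher in LRRK2KO cells (1.01%) and 149 lower (1.73%), and between the LPS 6 h arrays 148 were higher (1.72%) and 152 lower (1.77%). In either direction, 338 genes were 2-fold apart at LPS 24 h and 300 at LPS 6 h. By the median size of a difference, however, the LPS 24 h pair was no further apart than the LPS 6 h pair. That median was 0.21 at LPS 24 h, 0.20 at PBS and 0.24 at LPS 6 h. At 1.5-fold, 517 genes were higher at LPS 24 h (6.01%) and 510 lower (5.93%). Without background correction, only 51 genes were 2-fold higher and 56 were 2-fold lower.

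Most of the 338 genes that were 2-fold apart at LPS 24 h were already apart without LPS. A difference of at least 1.5-fold in the same direction between the PBS arrays was counted as seen, and 209 of the 338 genes were in that class (74 higher and 135 lower in LRRK2KO cells). It was not seen for 103 genes, which were detected on at least 1 PBS array but under 1.5-fold apart there. These comprised 61 genes higher in LRRK2KO cells (0.709% of all genes) and 42 lower (0.488%). A further 20 genes were undetected on both PBS arrays (7 higher and 13 lower), and 6 differed the other way at PBS (5 higher and 1 lower at LPS 24 h). For 115 of the 338 genes, 19 of them not seen at PBS, the probe was undetected on the dimmer LPS 24 h array, so that only a bound is known, and this bound was under 2-fold for 67 of the 338 and 16 of the 103.

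**Figure D1:**
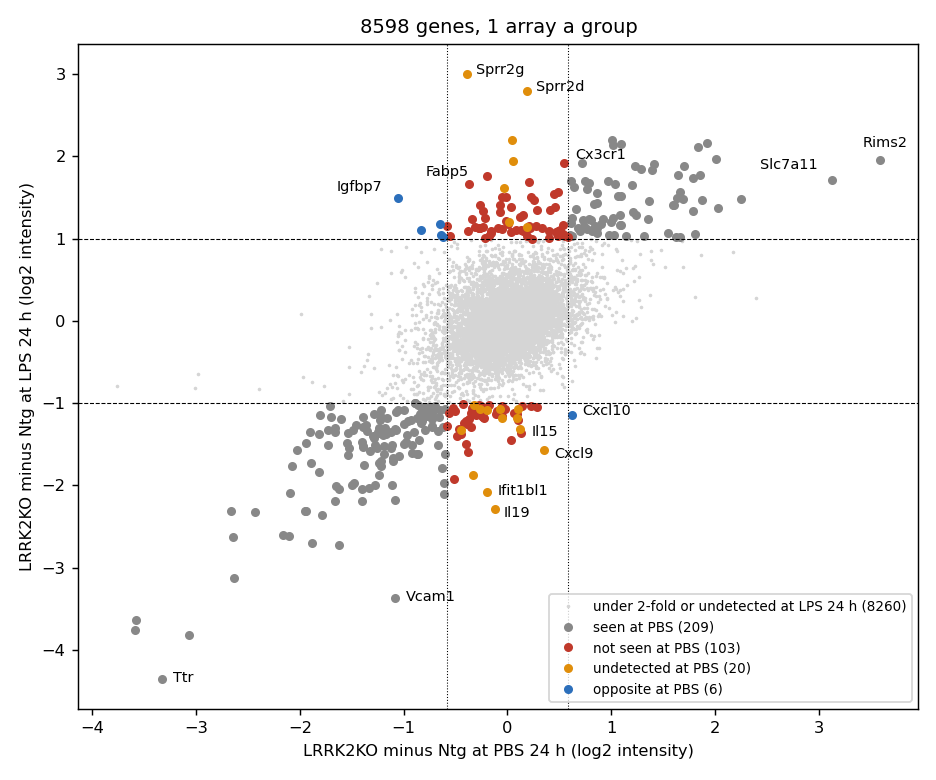
Each point is a gene, placed by LRRK2KO minus Ntg at PBS 24 h (x axis) and at LPS 24 h (y axis), both in log2 intensity, from 1 array a group. Dashed lines mark 2-fold at LPS 24 h and dotted lines 1.5-fold at PBS. The 209 genes seen at PBS lie outside the dotted lines along the diagonal, and the 103 genes not seen lie between them, above or below the dashed lines.

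The line at 1.5-fold splits a continuous range. Just inside it, and so not seen at PBS, were Cx3cr1 (1.46-fold apart at PBS), Cebpa and Nid2, both at 1.47-fold. Just outside it were Folr2 at 1.52-fold and H2-Ab1 at 1.53-fold. A count that needs no such line is the LPS 24 h difference minus the PBS difference, which was at least 2-fold upward for 155 genes (1.8%) and downward for 72 genes (0.837%). Of the genes not seen at PBS, 38 of the 61 higher ones and 14 of the 42 lower ones reached that size. The split between these directions depends on scaling. With each array scaled to one common median in place of quantile normalization, the median PBS difference of all genes moved to -0.41 while the median LPS 24 h difference was -0.03. The upward count was then 560 and the downward count 20.

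The genes lower in LRRK2KO cells at LPS 24 h and not seen or undetected at PBS were led by cytokines and interferon-stimulated genes. Il19, a cytokine of the IL-10 family, read 8.91 in LRRK2KO cells and 11.20 in Ntg cells, while it was undetected on both PBS arrays. The difference was -2.29 (4.90-fold), and at LPS 6 h it was -2.80, with 7.66 in LRRK2KO cells and 10.46 in Ntg cells. Both LPS times thus placed LRRK2KO cells below Ntg cells for this gene.

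Il15, a cytokine that sustains natural killer and memory T cells, stood at 8.47 in LRRK2KO cells and 9.83 in Ntg cells at LPS 24 h, against 8.56 in LRRK2KO cells and 8.43 in Ntg cells at PBS. Its difference was -1.36 at LPS 24 h, 0.13 at PBS and -1.22 at LPS 6 h. The LRRK2KO array at LPS 24 h was the one near its own PBS level, and both other detected Il15 probes pointed the same way. Il15ra, which presents IL-15 to neighbouring cells, differed by -1.18 and was undetected at PBS. It lies outside the rule for named genes and was chosen after its value was seen.

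Il1rn, the secreted antagonist of the IL-1 receptor, differed by -1.16 at LPS 24 h, -0.05 at PBS and -1.31 at LPS 6 h, and was likewise picked after its values were seen. By contrast, Il1a and Il18 were also over 2-fold lower, by -1.57 and -1.73, but had differed at PBS by -2.03 and -1.24. The other detected Il1a probe differed by -1.29 at LPS 24 h and -1.47 at PBS. The other detected Il18 probe differed by -1.42 at LPS 24 h but only -0.23 at PBS, so the Il18 probes disagree about PBS. Of 20 cytokine genes measured, 0 were at least 2-fold higher (1.71% of all genes were) and 5 were lower (2.22%), of which 3 (Il19, Il15 and Il1rn) were not seen or undetected at PBS. The median of the 20 was -0.33, against -0.03 over all genes.

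The classical early cytokines did not separate the genotypes to that extent. Tnf read 12.72 in LRRK2KO cells and 12.38 in Ntg cells, a difference of 0.34. Il1b read 13.98 in LRRK2KO cells and 14.33 in Ntg cells (-0.35), and its larger difference was at PBS (-1.05). Il6 read 6.76 in LRRK2KO cells and 6.44 in Ntg cells, and Nos2, the inducible nitric oxide synthase, 6.39 in LRRK2KO cells and 6.37 in Ntg cells. Arg1, the arginase that competes with it for arginine, was detected only at LPS 24 h and read 8.21 in LRRK2KO cells and 9.10 in Ntg cells (-0.89). None of these 5 genes reached 2-fold at LPS 24 h.

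Interferon-stimulated genes were lower in LRRK2KO cells nearly throughout, at PBS as well as after LPS. Of 40 such genes measured, 39 were below 0 at LPS 24 h, 12 were at least 2-fold lower and 0 at least 2-fold higher, and at 1.5-fold 20 were lower and 0 higher. Over all genes 4593 of 8598 were below 0, 2.22% were 2-fold lower and 1.71% higher, and 5.93% were 1.5-fold lower and 6.01% higher. Their median was -0.58 at LPS 24 h, -0.49 at LPS 6 h and -0.48 at PBS, where 14 were at least 1.5-fold lower and 0 higher. Over all 8598 genes, 481 were at least 1.5-fold lower at PBS and 386 higher. The median of LPS 24 h minus PBS within the list was -0.09, with 23 genes below 0 and 17 above. The list as a whole was thus about as low at PBS, and the late difference rested on some of its members.

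**Figure D2:**
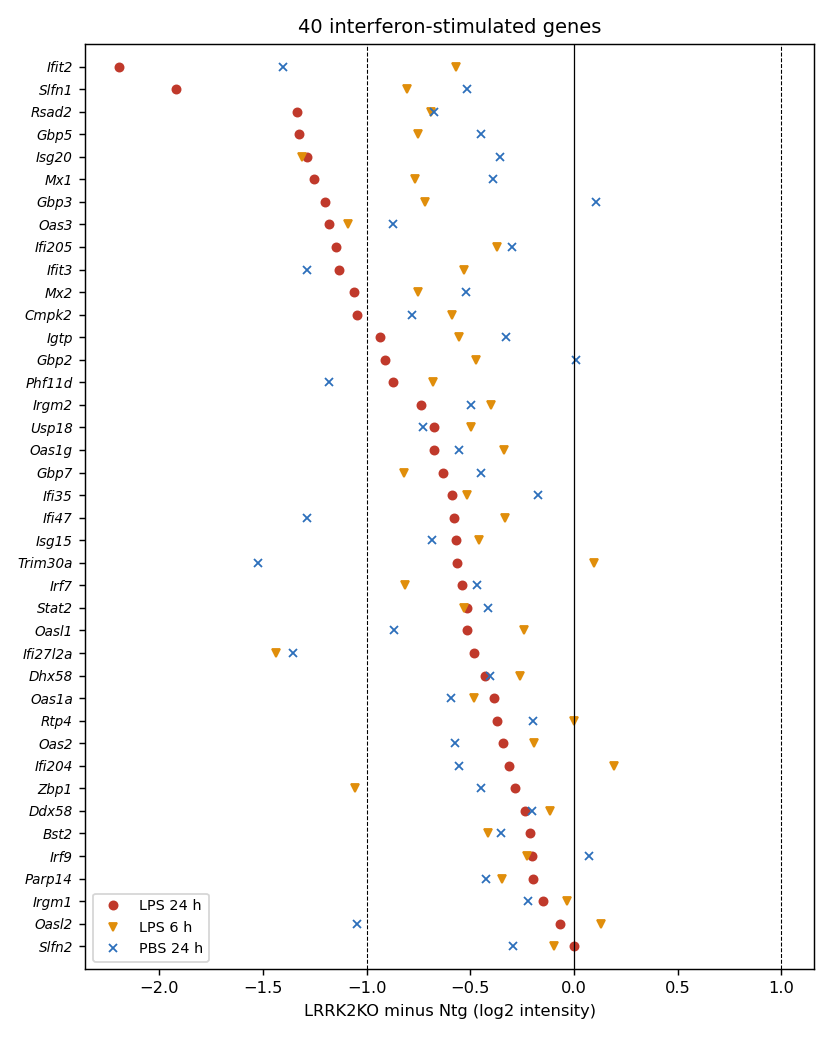
LRRK2KO minus Ntg in log2 intensity (x axis) for each of 40 interferon-stimulated genes (rows), at LPS 24 h (circles), LPS 6 h (triangles) and PBS 24 h (crosses), 1 array a group. At LPS 24 h 39 of 40 lie below 0 and 12 lie beyond the dashed 2-fold line at the left, among them Gbp3, whose PBS cross lies at 0.10.

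The 7 members that were 2-fold lower without being seen at PBS were Slfn1, Gbp5, Isg20, Mx1, Gbp3, Ifi205 and Mx2, of which Ifi205 and Mx2 were outside the rule for named genes. Slfn1, of the schlafen family, read 8.24 in LRRK2KO cells and 10.15 in Ntg cells at LPS 24 h, against 4.84 (undetected) in LRRK2KO cells and 5.36 in Ntg cells at PBS. Its difference was -1.92 at LPS 24 h. Mx1, a GTPase that blocks influenza and related viruses, read 6.93 in LRRK2KO cells and 8.19 in Ntg cells (-1.26, against -0.39 at PBS).

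Guanylate-binding proteins are GTPases that assemble on pathogen-containing vacuoles. Gbp3 read 10.20 in LRRK2KO cells and 11.40 in Ntg cells at LPS 24 h, 8.56 in LRRK2KO cells and 8.46 in Ntg cells at PBS, and 12.28 in LRRK2KO cells and 12.997 in Ntg cells at LPS 6 h. The PBS arrays therefore stood together and the LPS arrays apart, with differences of -1.20 at LPS 24 h, 0.10 at PBS and -0.72 at LPS 6 h. Gbp5 was undetected at PBS and read 6.86 in LRRK2KO cells and 8.19 in Ntg cells at LPS 24 h (-1.32). Isg20, an exonuclease that degrades viral RNA, read 6.64 in LRRK2KO cells and 7.93 in Ntg cells (-1.29).

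Ifit2 and Rsad2 were also far down the list at LPS 24 h, at -2.20 and -1.33, but were seen at PBS, with -1.40 and -0.67. Outside the list, Ifit1bl1, a relative of the IFIT antiviral proteins, was undetected in LRRK2KO cells at LPS 24 h and read 6.63 in Ntg cells, which makes it at least 2.97-fold lower. Apol9b, an apolipoprotein L family gene, was also undetected in LRRK2KO cells and read 6.48 in Ntg cells, at least 2.66-fold lower. Many of these genes belong to families of near copies (Ifit, Gbp, Mx, Slfn, Apol9), and whether a probe also binds a relative's transcript was not tested.

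Chemokines of the interferon-gamma type followed. Cxcl9, a ligand of CXCR3 that recruits T cells, was undetected on both PBS arrays and read 8.01 in LRRK2KO cells and 9.59 in Ntg cells at LPS 24 h, a difference of -1.58 (2.98-fold). At LPS 6 h it read 10.13 in LRRK2KO cells and 10.74 in Ntg cells. Cxcl10, which binds the same receptor, was 1 of the 6 genes on opposite sides at PBS and LPS 24 h. It read 10.50 in LRRK2KO cells and 11.65 in Ntg cells at LPS 24 h (-1.15), against 9.15 in LRRK2KO cells and 8.53 in Ntg cells at PBS (0.62). Its other detected probe differed by 0.18 at LPS 24 h and -0.16 at PBS, so neither difference held for both probes.

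Of 19 chemokines measured, 6 were at least 2-fold lower (2.22% of all genes were) and 1 was higher (1.71% of all genes), with a median of -0.70 at LPS 24 h and -0.66 at PBS. The LPS 24 h median was -0.46 without background correction. Ccl6 at -2.32 and Ccl8 at -2.18 had the lowest values and had differed at PBS by -2.43 and -1.09. The 1 higher chemokine was Cxcl13, which guides B cells. It read 7.15 in LRRK2KO cells and 5.75 in Ntg cells at LPS 24 h (1.41), against 7.58 in LRRK2KO cells and 7.66 in Ntg cells at PBS. Ntg cells given LPS were thus the low array among these 4 for Cxcl13.

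The genes of class I antigen presentation had smaller differences in the same direction. Of 16 measured, 15 were below 0 and 5 were at least 1.5-fold lower (5.93% of all genes were), but 0 reached 2-fold. Their median was -0.49 at LPS 24 h and -0.21 at PBS. The lowest were Nlrc5, the transcriptional activator of these genes, at -0.90 and H2-Q6, a non-classical class I molecule, at -0.89, and both were under 1.5-fold apart at PBS (-0.31 and 0.07). Tap1, a subunit of the peptide transporter, differed by -0.77 and -0.26 at PBS.

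Promoter windows are shown for 3 of these lower genes because their letters include the element that interferon-activated factors are known to bind. The windows run from 250 bases before to 50 bases after the gene's start (RefSeq, GRCm38.p6), and are written 5' to 3' on the gene's strand. Capitals mark every match to GAAANNGAA, searched on both strands. A second RefSeq start of Gbp3, whose window held no match, is not shown. Gbp3 is at chr3:142559794-142560093 (plus strand), Cxcl9 at chr5:92328030-92328329 (minus strand) and Apol9b at chr15:77728822-77729121 (plus strand).
Gbp3: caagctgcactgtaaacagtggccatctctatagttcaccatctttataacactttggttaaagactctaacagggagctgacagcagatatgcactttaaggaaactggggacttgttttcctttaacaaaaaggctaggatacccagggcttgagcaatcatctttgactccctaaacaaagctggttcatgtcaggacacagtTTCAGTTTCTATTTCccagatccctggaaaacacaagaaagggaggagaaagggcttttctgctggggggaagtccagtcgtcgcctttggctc
Cxcl9: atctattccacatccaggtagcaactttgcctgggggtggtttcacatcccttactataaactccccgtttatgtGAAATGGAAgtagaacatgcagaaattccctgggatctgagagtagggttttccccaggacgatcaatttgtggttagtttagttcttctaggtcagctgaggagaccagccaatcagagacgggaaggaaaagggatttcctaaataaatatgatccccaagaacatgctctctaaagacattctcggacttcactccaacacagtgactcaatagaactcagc
Apol9b: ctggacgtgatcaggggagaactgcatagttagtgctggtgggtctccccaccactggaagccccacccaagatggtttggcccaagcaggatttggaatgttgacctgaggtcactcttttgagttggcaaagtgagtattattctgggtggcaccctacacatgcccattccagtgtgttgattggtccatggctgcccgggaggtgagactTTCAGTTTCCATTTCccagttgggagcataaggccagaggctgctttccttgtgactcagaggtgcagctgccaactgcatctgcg

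In Gbp3 and Apol9b 2 overlapping matches on the reverse strand make up 1 run of capitals, and in Cxcl9 there is 1 match. Among the 55 genes that were 2-fold lower at LPS 24 h and not seen or undetected at PBS, 47 had a promoter entry and 15 of these held the letters (31.9%), counting a gene with several starts once if any of its windows did. The share was 7.69% of 52 promoters of the corresponding higher genes, 17.5% of 97 promoters of lower genes seen at PBS, 8.67% of the promoters of all genes measured and 9.76% of all 27025 genes in the table. Among genes induced early by LPS it was 26.2%. The letters TGACNNNGC, of the antioxidant response element, were in 14.9% of the lower genes' promoters and 17.3% of the higher genes' promoters, against 17% of all measured. GGGNNNNTCC, a form of the kappaB motif, was in 40.4% of the lower and 21.2% of the higher genes' promoters, against 26.9%. These shares describe letters in fixed windows and were not tested.

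Other lower genes not seen at PBS came from several functions. Hdc, which makes histamine from histidine, read 6.51 in LRRK2KO cells and 8.10 in Ntg cells at LPS 24 h (-1.59), while at LPS 6 h it read 9.73 in LRRK2KO cells and 9.78 in Ntg cells. The difference at that earlier time was -0.05. The other detected Hdc probe differed by -0.81 at LPS 24 h, under 2-fold, and by -0.28 at PBS. Il4i1, a secreted amino acid oxidase, read 5.48 in LRRK2KO cells and 6.93 in Ntg cells (-1.45, against 0.03 at PBS). Tnc, the matrix protein tenascin C, was undetected in LRRK2KO cells and 6.08 in Ntg cells, at least 2.02-fold lower.

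Of the remaining named genes lower at LPS 24 h and not seen or undetected at PBS, BC018473 differed by -1.88, Fam83g by -1.37, Glipr2 and Gm18852 by -1.31 each, Hspb6 by -1.24, Rac3 by -1.22 and Zmym6 by -1.20. The other detected Rac3 probe differed by -0.91 at LPS 24 h and -0.72 at PBS. It was thus under 2-fold at LPS 24 h and over 1.5-fold at PBS. Bcan, the brain proteoglycan brevican, was undetected in LRRK2KO cells at both LPS 24 h and PBS and was at least 1.57-fold lower at LPS 24 h. At PBS it differed by -0.58, near the 1.5-fold line.

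Among genes higher in LRRK2KO cells, Sprr2g and Sprr2d had the largest differences, and Sprr2e was higher too. Sprr2 genes encode small proline-rich proteins known as precursors of the cornified envelope of skin. Sprr2g read 8.86 in LRRK2KO cells and 5.86 in Ntg cells at LPS 24 h, a difference of 2.998 (7.99-fold). Sprr2d read 10.90 in LRRK2KO cells and 8.10 in Ntg cells (2.79, 6.93-fold), and Sprr2e read 6.72 in LRRK2KO cells and was undetected in Ntg cells, at least 3.10-fold higher.

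All 3 were undetected on both PBS arrays, and they did not differ in this way at LPS 6 h. There Sprr2g read 9.24 in LRRK2KO cells and 8.82 in Ntg cells, Sprr2d 11.72 in LRRK2KO cells and 11.95 in Ntg cells, and Sprr2e 9.67 in LRRK2KO cells and 9.87 in Ntg cells. The genotypes thus stood within 0.42 of each other at 6 h, and Ntg cells had the lower reading at 24 h. Sprr2k differed by 0.25 at LPS 24 h. The median of the list of 7 stefins, Sprr2 proteins and barrier genes was 0.25, and it turned to -0.35 when only probes detected on all 6 arrays were kept, which leaves out Sprr2d and Sprr2e. Sprr2g is not on the list.

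The promoter windows of Sprr2d (chr3:92338890-92339189) and Sprr2e (chr3:92351893-92352192), both on the plus strand, are shown because both genes were higher in LRRK2KO cells. They share 269 of 302 aligned columns (89.1%). Capitals mark bases that differ or are unpaired in the alignment.
Sprr2d: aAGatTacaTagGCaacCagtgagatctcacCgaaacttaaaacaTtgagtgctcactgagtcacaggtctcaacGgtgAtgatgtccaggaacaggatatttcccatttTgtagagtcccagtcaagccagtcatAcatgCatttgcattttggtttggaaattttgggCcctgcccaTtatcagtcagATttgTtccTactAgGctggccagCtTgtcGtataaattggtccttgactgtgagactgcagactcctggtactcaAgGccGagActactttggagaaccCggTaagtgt
Sprr2e: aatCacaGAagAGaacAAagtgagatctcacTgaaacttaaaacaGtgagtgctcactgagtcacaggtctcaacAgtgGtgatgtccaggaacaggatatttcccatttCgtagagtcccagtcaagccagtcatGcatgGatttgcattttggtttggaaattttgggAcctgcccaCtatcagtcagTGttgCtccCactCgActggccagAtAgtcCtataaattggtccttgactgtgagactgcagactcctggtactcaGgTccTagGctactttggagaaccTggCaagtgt

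Such near copies can share signal between probes, so the 3 readings may not be independent, which was not tested.

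**Figure D3:**
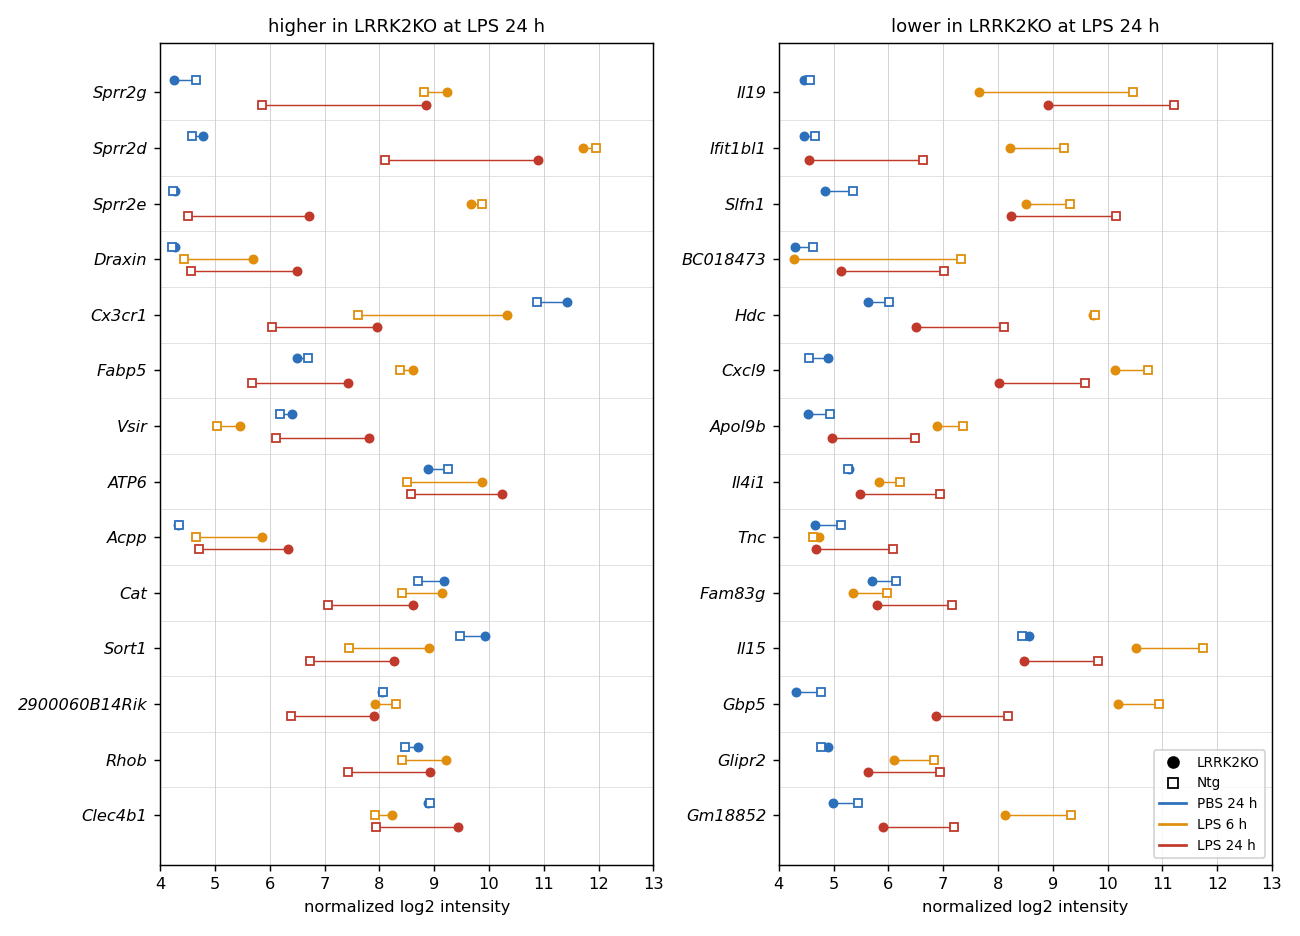
Normalized log2 intensity (x axis) of the 14 named genes with the largest LPS 24 h difference in each direction among those not seen or undetected at PBS, on each of the 6 arrays. Filled circles are LRRK2KO and open squares Ntg, joined within an arm. For Sprr2g the LPS 24 h points lie at 8.86 (LRRK2KO) and 5.86 (Ntg), and for Il19 at 8.91 (LRRK2KO) and 11.20 (Ntg).

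Cx3cr1, the fractalkine receptor through which neurons restrain microglia, read 7.96 in LRRK2KO cells and 6.04 in Ntg cells at LPS 24 h. At PBS it read 11.42 in LRRK2KO cells and 10.87 in Ntg cells, and at LPS 6 h 10.33 in LRRK2KO cells and 7.60 in Ntg cells. The LRRK2KO array was the higher of each pair, and the LPS 24 h arrays were the lowest of their genotypes. The difference was 1.92 (3.78-fold) at LPS 24 h, 0.55 at PBS and 2.73 at LPS 6 h, and at LPS 24 h it ranged from 1.16 to 1.98 over 5 normalization settings. Its ligand Cx3cl1 was undetected in LRRK2KO cells and read 5.29 in Ntg cells, at least 1.17-fold lower.

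Other homeostatic microglia genes did not share a gap of that size, apart from Olfml3. Of 20 measured, 16 were above 0, 2 were at least 2-fold higher (Cx3cr1 and Olfml3, against 1.71% of all genes) and 1 was lower (Sparc, against 2.22%), with a median of 0.24 at LPS 24 h and 0.19 at PBS. Olfml3, a secreted glycoprotein, read 8.74 in LRRK2KO cells and 6.83 in Ntg cells (1.91), but differed at PBS by 1.41. Fcrls, also on this list, differed by 0.91 at LPS 24 h and 0.25 at PBS by the probe used for the counts. Its 2 other detected probes differed by 1.20 and 1.45 at LPS 24 h and by 0.47 and 0.17 at PBS. By those probes Fcrls was over 2-fold higher at LPS 24 h and under 1.5-fold apart at PBS. Trem2, a lipid-sensing receptor of phagocytes, read 7.42 in LRRK2KO cells and 7.30 in Ntg cells at LPS 24 h, against 11.64 in LRRK2KO cells and 12.48 in Ntg cells at PBS. The larger Trem2 difference was thus at PBS, at -0.83.

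Fabp5, an intracellular fatty acid carrier, read 7.43 in LRRK2KO cells and 5.67 in Ntg cells at LPS 24 h (1.76), against 6.49 in LRRK2KO cells and 6.69 in Ntg cells at PBS. Cat, the catalase that breaks down hydrogen peroxide, read 8.62 in LRRK2KO cells and 7.06 in Ntg cells (1.56, against 0.49 at PBS). Sort1, the sorting receptor sortilin, read 8.28 in LRRK2KO cells and 6.73 in Ntg cells (1.54, against 0.45 at PBS and 1.45 at LPS 6 h). Its 3 other detected probes had the same sign but smaller differences, 1.12, 0.39 and 0.28 at LPS 24 h. At PBS these probes differed by 0.43, 0.34 and 0.45, so not all of them had a larger difference after LPS.

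Clec4b1, a C-type lectin, read 9.44 in LRRK2KO cells and 7.94 in Ntg cells at LPS 24 h (1.51), against 8.88 in LRRK2KO cells and 8.93 in Ntg cells at PBS. Rhob, a GTPase of endosomes and the cytoskeleton, differed by 1.51 at LPS 24 h and 0.23 at PBS, and Vsir, the immune checkpoint protein VISTA, by 1.69 and 0.21. By the probes given, these 3 genes had PBS arrays within 0.23 of each other. The other detected Clec4b1 probe differed by 0.86 at LPS 24 h, under 2-fold, and by -0.34 at PBS. Draxin, an axon guidance protein, and Acpp, an acid phosphatase, were detected at LPS 24 h in LRRK2KO cells alone, at 6.50 and 6.33, which makes them at least 2.66-fold and 2.37-fold higher than in Ntg cells.

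Of the other named genes in this direction, Tshz1 differed by 1.47, Abhd17c by 1.41, Diaph3 by 1.39, Dgat2, which completes triglyceride synthesis, by 1.38, Olfm1 by 1.35, 2900060B14Rik by 1.51 and complement factor B (Cfb) by 1.20. For Olfm1 only 1 of 2 other detected probes pointed the same way. The other detected Abhd17c probe differed by 0.53 at LPS 24 h, under 2-fold, and by 0.29 at PBS. Diaph3 was undetected in Ntg cells at LPS 24 h and was at least 1.93-fold higher.

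Among 29 genes of oxidative stress and the NRF2 response, 8 were at least 2-fold higher in LRRK2KO cells (1.71% of all genes were) and 2 lower (2.22% of all genes). Their median was 0.46 at LPS 24 h and 0.20 at PBS, against -0.03 and -0.01 over all genes. Only 2 of the 8 were not seen at PBS, Cat and Ftl1. Ftl1, the ferritin light chain, differed by 1.35 at LPS 24 h and 0.28 at PBS. Larger differences of this list were also present at PBS. Gsta3, a glutathione transferase, differed by 2.12 at LPS 24 h and 1.84 at PBS, and Gclm, the modifier subunit of the enzyme that starts glutathione synthesis, by 1.88 and 1.23. Gpx3, a secreted glutathione peroxidase, went the other way, by -3.12 and -2.64.

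Of 20 genes of cholesterol and lipid handling, 4 were at least 2-fold higher (1.71% of all genes were) and 1 was lower (2.22%), with a median of 0.45 at LPS 24 h and 0.32 at PBS. Fabp5 and Sqle, a squalene-oxidizing enzyme of sterol synthesis, were not seen at PBS. Sqle read 9.01 in LRRK2KO cells and 7.92 in Ntg cells (1.09, against 0.40 at PBS). The other detected Sqle probe differed by 1.05 at LPS 24 h and 0.91 at PBS, over 1.5-fold there. Not seen at PBS thus holds for 1 of the Sqle probes only. Stard4, a cholesterol carrier, had the largest difference of the list, 2.19, and was seen at PBS at 1.01.

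Of 29 nuclear genes of oxidative phosphorylation, 3 were at least 2-fold higher, 0 lower, and the median was 0.07. Those shares were 1.71% and 2.22% over all genes. Ndufb5 of complex I differed by 1.13 at LPS 24 h and -0.28 at PBS, and Atp5a1 of the ATP synthase by 1.01 and -0.21. The other detected Atp5a1 probe differed by 0.15 at LPS 24 h and 0.68 at PBS, so the pattern did not hold for both probes. The third was Sdhd, a subunit of succinate dehydrogenase, which was undetected in Ntg cells at LPS 24 h and is only shown to be at least 1.62-fold higher. The mitochondrial gene that the array annotation calls ATP6 read 10.24 in LRRK2KO cells and 8.59 in Ntg cells at LPS 24 h (1.66), against 8.89 in LRRK2KO cells and 9.26 in Ntg cells at PBS. Its LPS 6 h difference was 1.36, with LRRK2KO above Ntg as at LPS 24 h.

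Several groups stayed without a 2-fold member in either direction at LPS 24 h. They were 24 genes of the NF-kB pathway (median -0.01), 33 pattern recognition genes (-0.10), 31 LRRK2 relatives, partners and Rab substrates (0.02), 18 Parkinson disease genes (0.08), 29 genes of DNA replication (0.14) and 24 genes of mitosis. The mitosis list had a median of 0.10 at LPS 24 h and 0.43 at PBS. Among LRRK2's partners and substrates the largest differences were Rilpl1, which binds phosphorylated Rabs, at 0.81, the chaperone Hsp90aa1 at 0.74, whose other detected probe did not point the same way, and Rab10, a LRRK2 substrate, at 0.69.

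**Figure D4:**
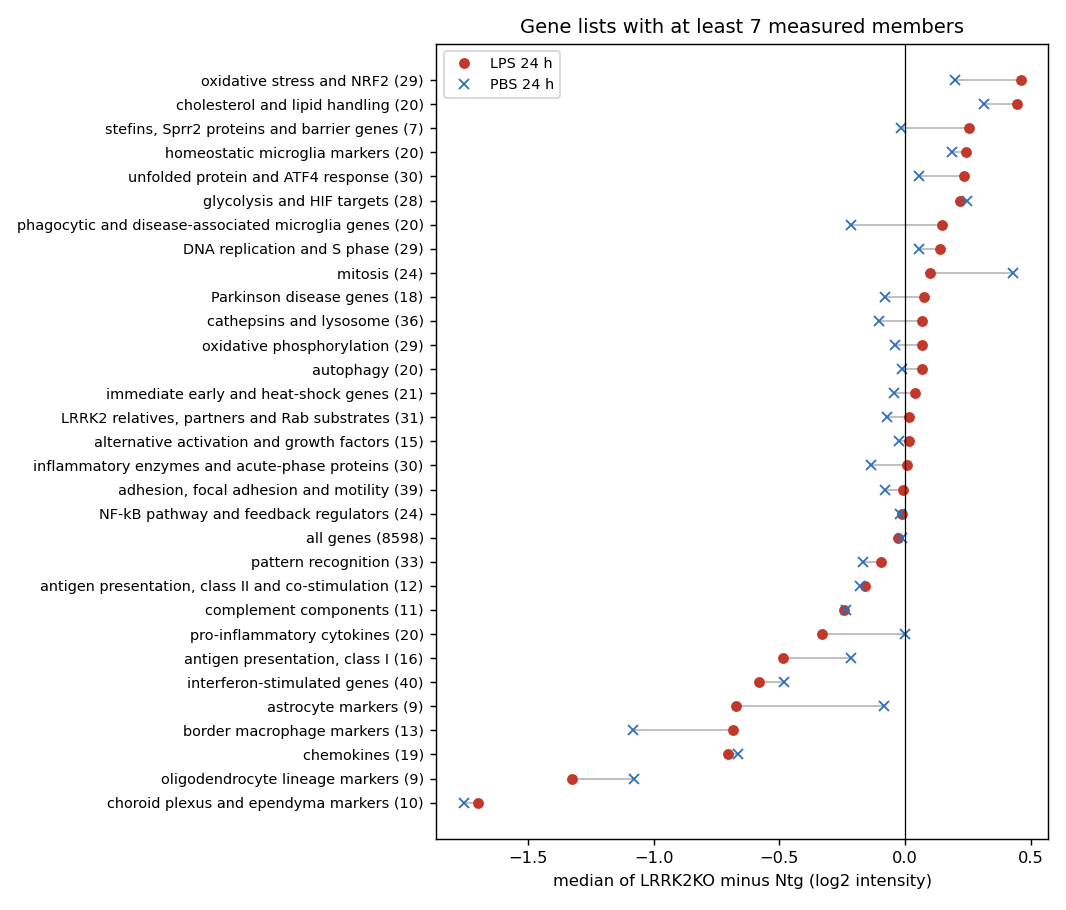
Median of LRRK2KO minus Ntg in log2 intensity (x axis) over each gene list with at least 7 measured members (number in brackets), at LPS 24 h (circles) and PBS 24 h (crosses), 1 array a group. The interferon-stimulated list lies at -0.58 at LPS 24 h and -0.48 at PBS, and the cytokine list at -0.33 at LPS 24 h and -0.00 at PBS.

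Genes were also grouped by their early response, from arrays other than the LPS 24 h pair. A set of 168 genes was at least 4-fold higher at LPS 6 h than at PBS in both genotypes. At LPS 24 h these had a median difference of -0.43, with 125 of 168 below 0, 9 at least 2-fold higher and 35 lower in LRRK2KO cells, against 1.71% and 2.22% of all genes. Their median was -0.49 at LPS 6 h and -0.21 at PBS. The 105 genes at least 4-fold lower at LPS 6 h had a median of 0.12, with 2 higher and 4 lower.

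**Figure D5:**
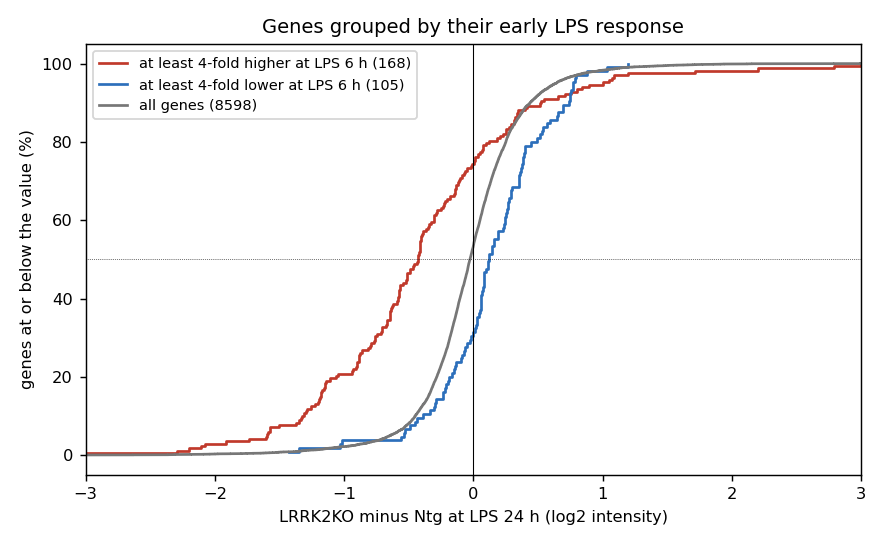
Cumulative share of genes in percent (y axis) by LRRK2KO minus Ntg at LPS 24 h in log2 intensity (x axis, drawn from -3 to 3), for 168 genes at least 4-fold higher at LPS 6 h than at PBS in both genotypes, 105 genes at least 4-fold lower, and all 8598 genes. The curve of the early-induced genes crosses the dotted middle line at -0.43, left of all genes at -0.03.

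Of the 55 genes lower at LPS 24 h and not seen or undetected at PBS, 17 were early-induced genes (30.9%, against 1.95% of all genes). Of the 68 such higher genes 5 were (7.35%). Part of both shares follows from how the classes were made. The groups include 13 lower and 7 higher genes undetected at PBS, and the early class needs a rise over the same PBS arrays. The lower group also had 49 of 55 differences of the same sign at LPS 6 h, 32 of them at least 1.5-fold, and the higher group had 55 of 68, 33 of them at least 1.5-fold. Over all 8598 genes, 553 were at least 1.5-fold lower and 665 higher at LPS 6 h. Where genes had other detected probes, 23 of 25 such probes in the lower group and 19 of 20 in the higher group pointed the same way. This counts the sign at LPS 24 h alone, not the size or the difference at PBS.

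The genes that differed most at LPS 24 h were lower in LRRK2KO cells and had also differed at PBS, and they include transcripts typical of other brain cells. Ttr, the transthyretin made by choroid plexus epithelium, read 7.73 in LRRK2KO cells and 12.08 in Ntg cells at LPS 24 h (-4.35), against 9.38 in LRRK2KO cells and 12.71 in Ntg cells at PBS (-3.33). Wfdc2 was undetected in LRRK2KO cells and at least 9.22-fold lower, and Cldn11, a tight-junction protein of myelin, was at least 9.71-fold lower. Vcam1, an adhesion molecule, was at least 7.67-fold lower at LPS 24 h, and its difference was -1.08 at PBS.

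The summed normalized intensity of 16 choroid plexus and ependyma markers was 571 in LRRK2KO cells, with 3 markers detected, and 5325.5 in Ntg cells, with 9 detected, a log2 ratio of -3.22 at LPS 24 h and -2.92 at PBS. Ttr made up most of the Ntg sum at both LPS 24 h and PBS. Over the 10 genes of this list that were measured, the median difference was -1.70 at LPS 24 h and -1.75 at PBS. For 17 border macrophage markers the ratio was -0.56 at LPS 24 h (12 detected in LRRK2KO cells and 13 in Ntg cells) and -0.80 at PBS. For 14 oligodendrocyte lineage markers it was -0.97 and -0.47, with 4 detected in LRRK2KO cells and 9 in Ntg cells at LPS 24 h. Of the 9 genes of that list that were measured, 6 were at least 2-fold lower at LPS 24 h (2.22% of all genes were). The others did not share this, as Mbp differed by 0.02, Mag by -0.25 and Cspg4 by 0.22. For 17 astrocyte markers the summed ratio was -0.46 at LPS 24 h and -0.32 at PBS. There 2 were detected in LRRK2KO cells and 7 in Ntg cells at LPS 24 h, and Gja1 made up most of the sum. For 17 fibroblast and pericyte markers the ratio was -0.47 at both. For 18 monocyte and neutrophil markers it was -0.41 at LPS 24 h and -1.16 at PBS. Of these, 5 were detected in LRRK2KO cells and 4 in Ntg cells at LPS 24 h. Mmp9 made up most of that sum, with differences of -0.40 and -1.35, while S100a8 differed by -0.55 and 0.65. Over the microglia markers the ratio was 0.03 at LPS 24 h and -0.18 at PBS. The part that other cells had in the differences above was not tested, and in RNA from a mixed sample fewer cells of a type and less RNA per cell cannot be told apart. For 18 neuron markers the summed ratio ran the other way, at 0.47 at LPS 24 h and 0.88 at PBS. Only 2 of them were detected in LRRK2KO cells at LPS 24 h, Rims2 and Elavl4, and 3 in Ntg cells, these and Map2. Rims2 was higher at 7.75 in LRRK2KO cells against 5.80 in Ntg cells, as at PBS. Elavl4 read 5.92 in LRRK2KO cells and 5.61 in Ntg cells, while Snap25, Syt1 and Tubb3 were undetected on both LPS 24 h arrays.

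Among other genes with large differences, Pla2g7 (2.14), Tnfsf13b (2.13), Slc6a12 (1.97), Rims2 (1.96), Slpi (1.92) and Hp (1.88) had differed in the same direction at PBS, by 0.72 to 3.60. Slpi, a secreted protease inhibitor, read 11.07 in LRRK2KO cells and 9.14 in Ntg cells at LPS 24 h and had differed by 0.72 at PBS.

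The other 5 genes that lay on opposite sides at LPS 24 h and PBS were Igfbp7, St13, Bcas2, Ppip5k2 and Sptssa. Igfbp7, a secreted binder of growth factors, read 8.97 in LRRK2KO cells and 7.48 in Ntg cells at LPS 24 h, while at PBS it was undetected in LRRK2KO cells and 5.42 in Ntg cells. At LPS 6 h it read 8.87 in LRRK2KO cells and 6.79 in Ntg cells, so both LPS pairs had LRRK2KO above Ntg. Ppip5k2 was undetected in Ntg cells at LPS 24 h and in LRRK2KO cells at PBS, and is shown only to be at least 1.24-fold higher and 1.14-fold lower there.

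Across all 103 genes not seen at PBS, 11 kept both calls under each of the 8 alternatives in normalization, input table, filter and probe choice. They were Cat, Clec4b1, Creg1, Cx3cr1, Ftl1, Idh1, Rhob and Tshz1, higher in LRRK2KO cells, and Gbp3, Il15 and Il1rn, lower. Creg1 and Idh1 are named because they complete this count. They differed by 1.11 and 1.17 at LPS 24 h.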

How the data were processed

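Microglial total RNA was amplified to biotinylated cRNA and hybridised to Illumina beadchips, per the labels. For each of 45281 probes on 6 arrays, the authors deposited a linear, unnormalized intensity and a detection p-value. The deposited p-value compares a probe with the array's negative controls. The submitters' processing notes list BeadStudio, with the version not given in the sources used here. The intensity values of the authors' series matrix served as an alternative.

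Background was corrected with limma 3.58.1 (neqc with detection p-values, offset 16, in R 4.3.3), followed by quantile normalization and log2. Differences and counts were computed in Python 3.11.15 with pandas 2.3.3 and numpy 2.4.6. Of 45281 probes, 34885 carried 1 gene symbol, 18 several and 10378 none in the platform annotation, and 0 symbols changed through RefSeq (GRCm38.p6). The 15553 probes detected on at least 2 arrays at a detection p under 0.01 gave 8598 genes, each by its probe with the highest mean. The number of arrays limits the precision.

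A gene counted as 2-fold apart where it was detected on the brighter array. Each group has 1 array, so no test was made, and the labels' groups came from the titles. Bounds written as at least N-fold divide the brighter array's value by that of the dimmest detected probe on the other array, or by the undetected probe's own value where that was higher. The procedure was tested on simulated data.

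Named genes were, per direction, the 15 largest LPS 24 h differences, the 15 largest not seen at PBS, the 6 largest undetected at PBS, up to 8 on opposite sides, up to 4 per list, and always Trem2, Ptk2, Arg1, Nos2, Il6, Il1b, Tnf, Cx3cl1, Cx3cr1 and Lrrk2. Ptk2 is not analysed here. The members, the 37 gene lists and the classes were chosen with earlier results of these data known. Of 924 listed genes, 642 were measured. Alternatives covered background correction, normalization, the detection filter, the input table, the probe chosen and the fold lines.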

Additional observations from a re-analysis of the deposited data

Results flagged for a closer look

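For 6 genes LRRK2KO cells lay on one side of Ntg cells at LPS 24 h and on the other side at PBS, by their normalized values. The LPS 24 h differences were 1.4888 for Igfbp7, 1.1764 for Bcas2, 1.1072 for St13, 1.0434 for Ppip5k2, 1.0197 for Sptssa and -1.149 for Cxcl10. At PBS they were -1.05 for Igfbp7, -0.65 for Bcas2, -0.83 for St13, -0.64 for Ppip5k2, -0.62 for Sptssa and 0.62 for Cxcl10. Of these, Ppip5k2 was undetected in Ntg cells at LPS 24 h and in LRRK2KO cells at PBS, which bounds its differences at 1.24-fold and 1.14-fold, and Igfbp7 was undetected in LRRK2KO cells at PBS, which bounds that difference at 1.42-fold. The other detected Cxcl10 probe differed by 0.18 at LPS 24 h and -0.16 at PBS, so the Cxcl10 reversal held for 1 of its 2 probes only. Each of the 6 genes rests on 4 single arrays, and the difference was not tested.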

How the results depend on the processing

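No paired analysis was possible because each group has 1 array and all carry the same replicate number, and no array could be left out for the same reason. Without background correction, and equally in the authors' series matrix, 51 genes were 2-fold higher and 56 lower at LPS 24 h, against 147 and 191. Then 22 and 14 of these were not seen at PBS, against 61 and 42, and the difference beyond PBS reached 2-fold upward for 32 genes and downward for 19, against 155 and 72. With probes detected on all 6 arrays, which keeps fewer genes, there were 97 higher and 81 lower, and 40 with a downward difference beyond PBS. With median scaling of the arrays, 13 lower genes were not seen at PBS, and the difference beyond PBS was 560 upward and 20 downward. At 1.5-fold for LPS 24 h, 517 were higher and 510 lower, with 330 and 254 not seen at PBS. A lower fold line at PBS left 39 higher and 24 lower genes not seen, and a 2-fold line gave 95 and 88. The causes were not tested except where fewer genes or another fold line set the count. The stefin and Sprr2 list's median turned to -0.3462 with probes detected on all 6 arrays, which leaves out the Sprr2 genes undetected at PBS. Of 1409 values of named genes under alternatives, 1288 kept their side of 2-fold, 121 crossed it and 0 turned sign where they had reached 2-fold. The early-induced genes' median lay between -0.51 and -0.37. Of the 103 genes not seen at PBS, 22 were also not seen without background correction, 58 with median scaling and 94 with cyclic loess. Dim probes near the detection limit give the least certain differences.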
